A study of Mus musculus with 36 samples.

Results

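The genes described here are 10 genes of the NRF2 antioxidant pathway, read by their symbols from 2 tables of gene counts that each list 49568 gene names. They are Nfe2l2 (the gene of NRF2), Keap1, Gclc, Gclm, Slc7a11, Txnrd1, Srxn1, Hmox1, Nqo1 and Sqstm1, and all 10 were found in both tables. RNA-seq was run on the mouse macrophage line RAW264.7 after 72 h of treatment, with medium refreshed at 48 h. One table held 18 libraries of an IFNγ experiment (the M1-polarizing condition of the study). The other held 18 of an IL-4 experiment (the M2-polarizing condition). Each table had 3 groups of 6 libraries, namely PBS, SE and PE. SE and PE are soluble 15-mer peptides given at 100 µg/ml, with the table's cytokine at 5 ng/ml. Whether PBS cells received the cytokine is taken up below. SE is 65-79*0401, from an HLA-DRB1 allele that raises the risk of rheumatoid arthritis, and PE is 65-79*0402, from an allele linked to protection. Replicates 1-3 and replicates 4-6 of every group carried different label schemes. The study describes its 6 replicates as biological, from 2 separate experiments, and reports them together. Here each set of 3 was analysed apart. All groups came from 1 cell line, and the labels do not say which libraries came from separate cultures, so p-values measure the spread between these libraries, which may be in part technical.

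NRF2 is a transcription factor that KEAP1 binds and hands to a ubiquitin ligase, so that it is degraded while the cell is unstressed. Electrophiles and oxidants modify KEAP1, NRF2 then accumulates, pairs with a small MAF protein and activates genes through antioxidant response elements. In macrophages the pathway is known for supplying glutathione and NADPH, for breaking down haem and for restraining inflammatory gene expression. Its activity is set largely at the level of the protein, so the mRNA of Nfe2l2 need not follow the mRNAs of its targets.

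Short stretches of promoter are shown for the genes whose windows held a known element of the pathway. RefSeq windows on GRCm38.p6, from 250 bases before to 50 after a transcription start, were given for 8 of the 10 genes, in 10 windows, and none was given for Hmox1 or Gclc. The core of the antioxidant response element, TGACNNNGC, was searched on both strands and lay in a window of 4 of the 8 genes, against 12.4% of all 32851 windows and 14.0% of the 27025 genes that have one. The AP-1 element TGANTCA, which reads alike on both strands and can overlap the core, lay at 2 places in the window of Srxn1 and in no window of the other genes, against 7.81% of all windows. Below, each stretch reads 5′ to 3′ along the gene's strand, and capitals mark the element.
Nfe2l2, chr2:75704885-75704913, minus strand: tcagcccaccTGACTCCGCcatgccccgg
Gclm, chr3:122245413-122245441, plus strand: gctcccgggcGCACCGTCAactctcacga
Txnrd1, chr10:82859104-82859132, plus strand: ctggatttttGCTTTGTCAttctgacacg
Srxn1, chr2:152105542-152105570, plus strand: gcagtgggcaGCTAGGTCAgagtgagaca
Srxn1, chr2:152105412-152105438, plus strand: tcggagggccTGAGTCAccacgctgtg
Srxn1, chr2:152105469-152105495, plus strand: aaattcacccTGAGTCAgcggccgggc
The core reads forward in Nfe2l2, where it begins 240 bases before the start, and in reverse in Gclm, Txnrd1 and the first stretch of Srxn1. It begins 134 bases before the start in Gclm and 92 bases before the start of the second of 3 Txnrd1 windows, while in Srxn1 it lies 28 bases past the start, within the transcribed part. The AP-1 elements of Srxn1 begin 102 and 45 bases before its start. A match of letters is a description of the window and not a bound site.

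Library totals ran from 20.67 M to 63.16 M counts in the IFNγ table and from 17.05 M to 30.64 M in the IL-4 table. CPM are counts scaled to library size, with TMM factors except for the next range and the histone sums. A count of 0 allowed up to 3 counts, which was 0.0475 to 0.176 CPM, for counting error only. Macrophage markers summed to 3208 CPM or more in each of the 36 libraries, with Mertk near 0. T cell, B cell, fibroblast and epithelial markers summed to at most 1.25 CPM. In the IFNγ table, 8 IFNγ-response genes summed to 728–906 CPM in PBS, 3401–3645 in SE and 4426–4574 in PE among replicates 1-3. Among replicates 4-6 the sums were 693–856 CPM in PBS, 497–579 in the libraries labelled SE and 3579–3821 in PE. The 3 libraries labelled SE, replicates 4-6, thus went against their label, and results that rest on them are given as such. In the IL-4 table, 8 IL-4-response genes summed to 3.00–5.69 CPM in PBS and 43.0–128 CPM with either peptide. PBS thus stood below the peptide groups in these response genes, the libraries labelled SE, replicates 4-6, of the IFNγ table excepted. The labels do not say whether PBS cells received the cytokine. The study's figure legends describe cytokine in all cells, with peptide or without, while its methods describe cells with or without cytokine. In contrasts against PBS the cytokine and the peptide cannot be told apart, and SE against PE is the contrast between peptides. Histone transcripts ran from 72.2 to 187 CPM in replicates 1-3 of the IFNγ table and from 2360 to 6290 CPM in its replicates 4-6. In the IL-4 table they ran from 55.3 to 139 and from 3380 to 15500 CPM. Rn7s1 took at most 0.000791% of counts in replicates 1-3 of the IFNγ table and 5.59–7.54% in its replicates 4-6. It took at most 0.00470% in the IL-4 table. The label sets thus also differed in RNA content, and the part of this in their results was not tested.

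The 10 genes spanned a wide range of levels. Per kilobase of exon, the order in PBS replicates 1-3 of the IFNγ table was Sqstm1 (476 to 538 CPM per kb over the 3 libraries), Hmox1 (146 to 182), Nfe2l2 (35.4 to 37.2), Srxn1 (24.4 to 28.5), Txnrd1 (18.2 to 22.4), Keap1 (12.3 to 13.8), Gclc (11.2 to 14.0), Gclm (3.79 to 5.22), Slc7a11 (2.94 to 3.80) and Nqo1 (0.156 to 0.301). The ranges of Keap1 and Gclc overlapped, as did those of Gclm and Slc7a11, and the other neighbours were apart. In the SE libraries of the same set Hmox1 reached 843 ± 40.3 CPM per kb (SD, n = 3), still below Sqstm1 at 1054 ± 15.2. Gclm stood at 18.9 ± 0.205 there and passed Keap1 (13.9 ± 0.517) and Gclc (12.6 ± 0.674). Nqo1, the quinone reductase often used as a readout of NRF2, was close to undetected in these cells, with 1 to 31 counts per library over both tables.

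In replicates 1-3 of the IFNγ table, Hmox1, Gclm, Slc7a11, Srxn1 and Sqstm1 were higher with either peptide than with PBS, with the larger estimate for SE in each. Gclc, Keap1 and Txnrd1 were not called with either. With SE, 6 of the 10 genes rose and none fell past the thresholds, an adjusted p under 0.05 and a fold over 1.5 in edgeR's quasi-likelihood test. Over all 15343 genes tested, 22.8% were called in that comparison and 12.6% were called as higher. With PE, 5 rose and 1 fell, where 19.8% of all genes were called, 10.3% as higher and 9.54% as lower. The median log2 fold change of the 10 genes was 1.12 with SE and 0.68 with PE, against -0.01 and 0.00 over all genes. Signs of RNA content moved with the same contrast, since histone transcripts stood at 176–187 CPM in PBS and 72.2–87.3 CPM with the peptides, and mitochondrial genes took 2.53–3.56% of counts in PBS and 1.62–1.95% with the peptides. Their part in the result was not tested.

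**Figure D1:**
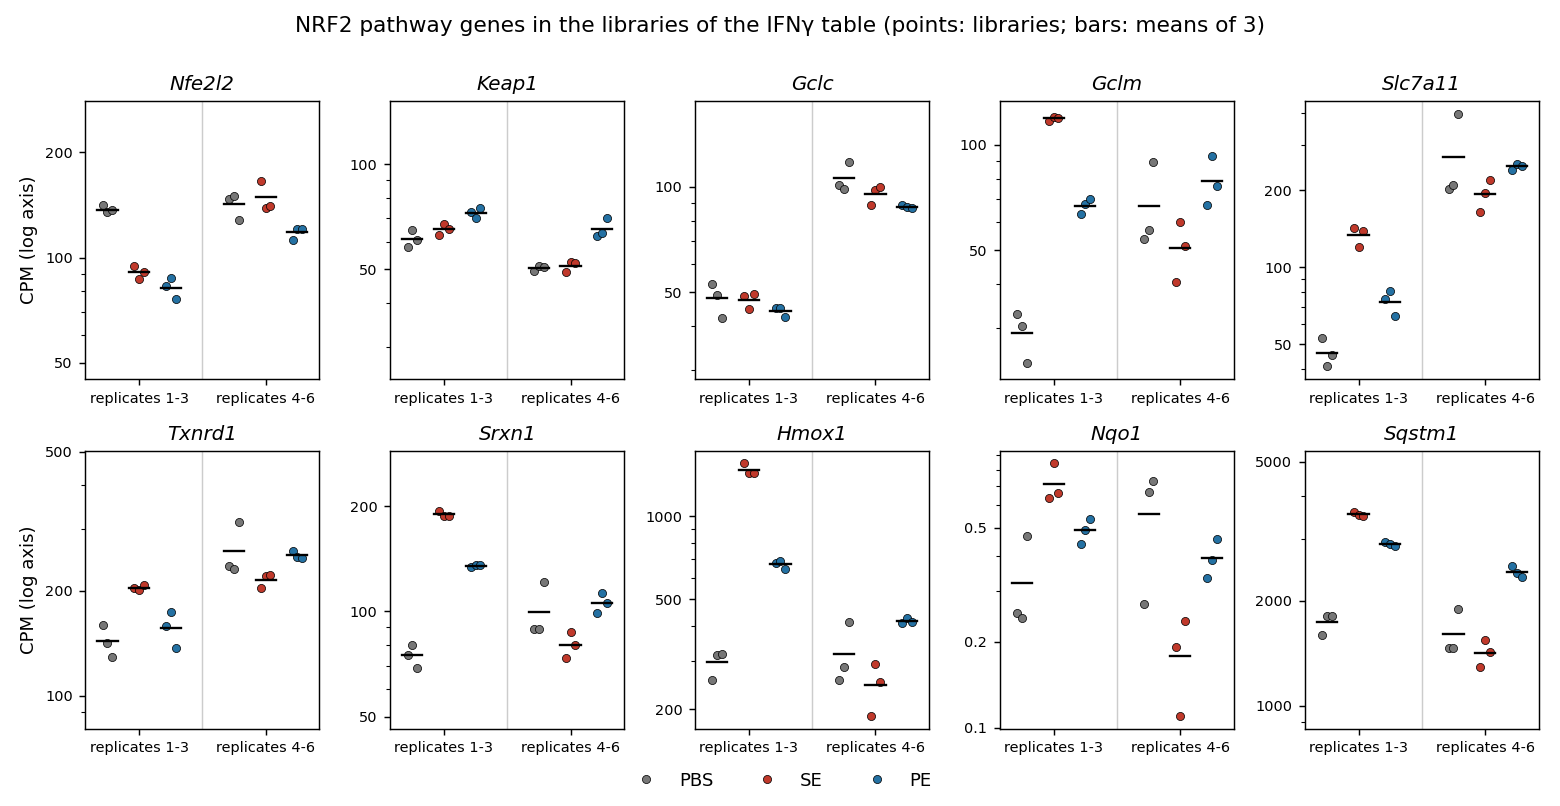
CPM of the 10 genes in the IFNγ table on log axes that differ in range between panels, with 1 point per library, a bar at the mean of 3 libraries, and replicates 1-3 and 4-6 side by side. In replicates 1-3 the Hmox1, Gclm and Srxn1 points of SE, PE and PBS lie in separate bands with SE highest, while in replicates 4-6 the libraries labelled SE lie among or below those of PBS for the same genes.

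The regulators moved little or downward. Nfe2l2, at chr2:75675513-75704641 on the minus strand, stood at 141, 135 and 137 CPM in PBS replicates 1, 2 and 3, at 94.3, 87.0 and 90.8 CPM in SE and at 82.7, 87.5 and 75.9 CPM in PE. All 6 peptide libraries lay below all 3 PBS libraries. The log2 fold change was -0.71 ± 0.06 (standard error, as after every log2 value below) with PE (adjusted p = 3.34e-07), and with SE it was -0.57 ± 0.06 (adjusted p = 1.83e-06), a 1.49-fold difference that stayed under the fold threshold. Keap1, the adaptor that marks NRF2 for degradation (chr9:21229730-21239361, minus strand), ran from 57.8 to 64.8 CPM in PBS, from 62.6 to 67.4 in SE and from 70.1 CPM upward in PE. Its log2 fold changes of 0.12 ± 0.07 with SE (adjusted p = 0.159) and 0.29 ± 0.07 with PE (adjusted p = 0.00247) did not pass the fold threshold. Keap1 shares bases with an antisense gene, Gm16754, and since the strand setting of the counting is not given in the sources used here, reads of the pair may not be told apart. Annotated genes also overlap Nfe2l2 (Gm24996), Gclm (Gm6061 and Gm17494), Slc7a11 (5 pseudogenes or noncoding entries) and Txnrd1 (Eid3, Gm38560 and Gm47073), so the same holds for them, with the strand of no help for Gm24996, Gm6061, Eid3 and 2 of the 5 in Slc7a11.

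Of the glutathione genes, the modifier subunit and the cystine carrier rose and the catalytic subunit did not pass. Gclm, the modifier subunit of glutamate-cysteine ligase (chr3:122245557-122270732, plus strand), stood at 32.8, 30.3 and 23.8 CPM in PBS, at 117, 119.8 and 119.5 CPM in SE, and at 63.3, 67.5 and 70.2 CPM in PE. The 3 groups did not overlap, with SE highest and PE between. The fold was 4.18 with SE (log2 2.06 ± 0.09, adjusted p = 3.99e-10) and 2.37 with PE (1.25 ± 0.09, adjusted p = 1.00e-07). Slc7a11, the cystine-glutamate antiporter that brings in cystine for glutathione (chr3:49892526-50443614, minus strand), stood at 52.9, 40.9 and 45.3 CPM in PBS, at 143, 120.3 and 139 CPM in SE and at 74.8, 80.7 and 64.6 CPM in PE. Its groups were also apart, and the folds were 2.95 with SE (log2 1.56 ± 0.10, adjusted p = 1.22e-08) and 1.63 with PE (0.70 ± 0.10, adjusted p = 4.28e-05). The PE call on Slc7a11 was lost when replicate 2 was left out (0.56, adjusted p = 0.00145). Gclc, the catalytic subunit of the same ligase as Gclm (chr9:77754535-77794485, plus strand), ran from 42.1 to 52.7 CPM with all groups overlapping, at log2 0.02 ± 0.07 with SE (adjusted p = 0.888) and -0.08 ± 0.07 with PE (adjusted p = 0.392).

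The thioredoxin genes differed in size of response. Srxn1, sulfiredoxin, which restores overoxidized peroxiredoxins (chr2:152105516-152111376, plus strand), stood at 75.2, 80.4 and 68.7 CPM in PBS, at 194, 188 and 187 CPM in SE and at 134, 136 and 136 CPM in PE. No library of one group reached into another, and the folds were 2.58 with SE (log2 1.37 ± 0.06, adjusted p = 3.99e-10) and 1.86 with PE (0.89 ± 0.06, adjusted p = 4.86e-08). Txnrd1, cytosolic thioredoxin reductase (chr10:82833951-82897712, plus strand), stood at 159, 142 and 129 CPM in PBS, at 203, 200.5 and 208 CPM in SE and at 158, 174 and 137 CPM in PE. SE lay above both other groups, which overlapped, and the log2 fold change with SE of 0.54 ± 0.08 (adjusted p = 8.89e-05) was under the fold threshold. With PE it was 0.17 ± 0.08 (adjusted p = 0.108).

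Hmox1, haem oxygenase, which opens haem to biliverdin, iron and carbon monoxide (chr8:75093621-75100589, plus strand), gave the largest response of the 10 with SE. It stood at 255, 314 and 318 CPM in PBS, at 1558, 1439 and 1432 CPM in SE and at 675, 690.0 and 646 CPM in PE. The 3 groups were far apart, and the folds were 5.07 with SE (log2 2.34 ± 0.08, adjusted p = 4.46e-11) and 2.32 with PE (1.22 ± 0.08, adjusted p = 4.09e-08). Sqstm1, the autophagy receptor p62, which also binds KEAP1 (chr11:50199366-50210827, minus strand), rose 2.07-fold with SE (log2 1.05 ± 0.06, adjusted p = 9.63e-09) and 1.72-fold with PE (0.78 ± 0.06, adjusted p = 2.76e-07). Its libraries stood at 1596, 1805 and 1807 CPM in PBS, at 3594, 3518 and 3497 CPM in SE and at 2949, 2908 and 2878 CPM in PE, again with no overlap. Sqstm1 shares bases with Mrnip on the opposite strand, with the limit given for Keap1. Nqo1 (chr8:107388225-107403206, minus strand) had 9, 8 and 15 counts in PBS, 23, 29 and 25 in SE and 15, 18 and 19 in PE. Its call with SE, at log2 1.18 ± 0.33 (adjusted p = 0.00863), rested on these few reads and was lost without replicate 1 (adjusted p = 0.0524) or replicate 2 (adjusted p = 0.138), and with PE it was 0.66 ± 0.35 (adjusted p = 0.136).

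SE and PE were given at the same dose and for the same time, so their libraries compare the peptides directly. Under IFNγ in replicates 1-3, 3 of the 10 genes were higher with SE and none was lower, where 6.08% of all genes were called and 4.48% were called as higher. They were Hmox1 (log2 1.13 ± 0.08, 2.18-fold, adjusted p = 8.14e-07), Slc7a11 (0.86 ± 0.09, 1.81-fold, adjusted p = 2.95e-05) and Gclm (0.82 ± 0.09, 1.76-fold, adjusted p = 2.38e-05). In each of the 3 genes every SE library lay above every PE library, and leaving out any one replicate number kept the count at 3. Srxn1 (0.48 ± 0.06, adjusted p = 8.84e-05), Txnrd1 (0.37 ± 0.08, adjusted p = 0.00503) and Sqstm1 (0.27 ± 0.06, adjusted p = 0.00730) passed the p threshold alone. For the 4 others, the estimates with 2 standard errors either side ran from 0.01 to 0.25 for Nfe2l2, from -0.31 to -0.03 for Keap1, from -0.04 to 0.24 for Gclc and from -0.08 to 1.12 for Nqo1. Of the 8 IFNγ-response genes, 2 were called higher with SE than with PE, 1 lower and 5 not called (median log2 -0.14), while their summed level was lower in SE, and their part in the result was not tested.

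Replicates 4-6 of the IFNγ table gave other values. With PE against PBS, 1 of the 10 genes passed, where 10.8% of all genes were called and 6.16% were called as higher. It was Sqstm1, at 1467, 1466 and 1889 CPM in PBS and 2511, 2407 and 2344 CPM in PE, with the groups apart and a log2 fold change of 0.59 ± 0.11 (1.51-fold, adjusted p = 0.00150). This call sat at the fold threshold, and it was lost without replicate 4 (0.50), without replicate 5 (0.53) or without the 3 libraries labelled SE (0.58, adjusted p = 0.00404). Hmox1 stood at 256, 285 and 415 CPM in PBS and at 412, 427 and 414 CPM in PE (0.39 ± 0.17, adjusted p = 0.124). The groups touched through PBS replicate 6 alone, and with that library left out the value was 0.62 (adjusted p = 0.00452). PBS replicate 6 was also high for Slc7a11, at 399 CPM against 203 and 209 CPM in the other PBS libraries, and for Gclm, at 89.1 CPM against 53.9 and 56.9 CPM. PE stood at 240.2, 254 and 249 CPM for Slc7a11 (-0.13 ± 0.21, adjusted p = 0.722) and at 67.3, 92.9 and 76.1 CPM for Gclm (0.24 ± 0.19, adjusted p = 0.413), so both genes overlapped with PBS. Srxn1 (0.09 ± 0.12, adjusted p = 0.638) and Txnrd1 (-0.04 ± 0.10, adjusted p = 0.828) did not pass. Nfe2l2, at -0.26 ± 0.08 (adjusted p = 0.0387), was again lower with PE but under the fold threshold, and Keap1 was higher at 0.37 ± 0.07 (adjusted p = 0.00168), also under it. Gclc, at -0.28 ± 0.08 (adjusted p = 0.0222), was lower under the fold threshold too, and Nqo1 did not pass (-0.44 ± 0.43, adjusted p = 0.521). Mitochondrial genes took 4.35–5.17% of counts in PBS, 4.98–5.94% in the libraries labelled SE and 3.30–3.50% in PE, and the part of this was not tested.

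The libraries labelled SE, replicates 4-6, gave 0 of 10 calls against PBS with edgeR and 0 with DESeq2, where 0.720% of all genes were called. At an unadjusted p under 0.05, 5 of the 10 were counted, against 17.2% of all genes, with log2 fold changes that were negative in all 5 (Slc7a11 -0.48, Txnrd1 -0.27, Srxn1 -0.31, Hmox1 -0.38 and Nqo1 -1.51). Hmox1 stood at 189, 292 and 250.3 CPM in these libraries, overlapping with PBS. Against PE of the same set, 3 of the 10 were lower and none was higher, where 13.8% of all genes were called and 7.90% were called as lower. They were Hmox1 (-0.77 ± 0.17, adjusted p = 0.00499), Sqstm1 (-0.77 ± 0.11, adjusted p = 0.000188) and Gclm (-0.63 ± 0.19, adjusted p = 0.0264). The Gclm call was lost with DESeq2 (-0.63, adjusted p = 0.0520), without replicate 4 (-0.60, adjusted p = 0.0526) and without replicate 5 (-0.63, adjusted p = 0.0885), with its estimate little moved. The SE-against-PE direction of Hmox1 and Gclm was thus opposite in the 2 label sets, and in replicates 4-6 it rests on the libraries that went against their label. Their IFNγ-response sum, at 497–579 CPM, was below that of PBS at 693–856 CPM. The part of this in the reversal was not tested.

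**Figure D2:**
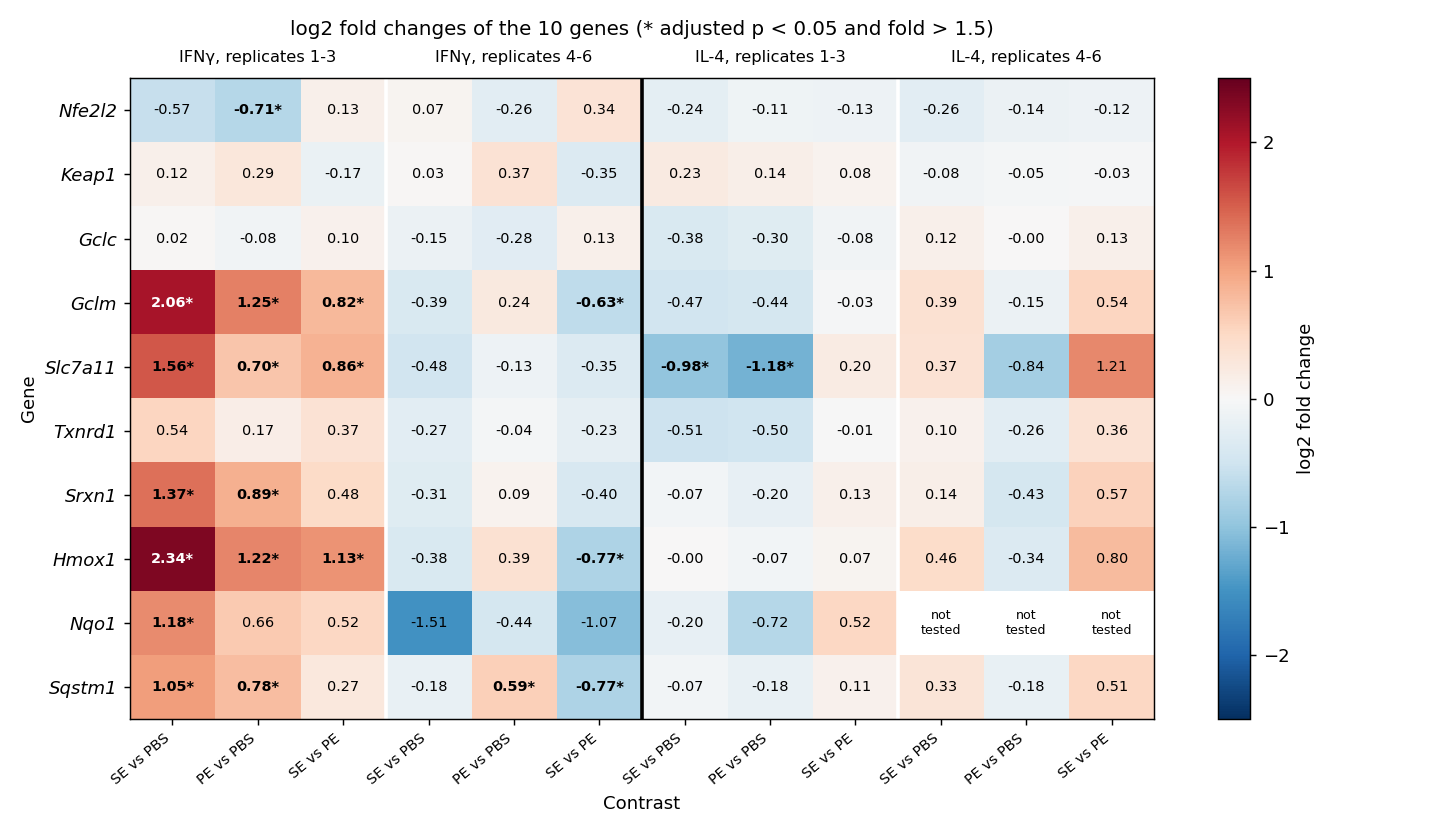
Log2 fold changes of the 10 genes (lines) in 12 comparisons (columns), coloured from blue for lower to red for higher, with an asterisk where adjusted p was under 0.05 and the fold over 1.5. Calls gather in replicates 1-3 of the IFNγ table, where Hmox1 reached 2.34 with SE, and Nqo1 was not tested in replicates 4-6 of the IL-4 table.

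The difference between the label sets was itself tested in 1 model of the 18 IFNγ libraries. For SE against PBS, 8 of the 10 genes differed (1 upward, 7 downward), where 35.7% of all genes were called, 18.9% upward and 16.8% downward. The difference, replicates 4-6 minus 1-3, was -2.70 ± 0.21 on the log2 scale for Hmox1 (adjusted p = 6.33e-09), -2.43 ± 0.24 for Gclm (adjusted p = 1.46e-07), -2.02 ± 0.26 for Slc7a11 (adjusted p = 5.05e-06) and -1.66 ± 0.14 for Srxn1 (adjusted p = 2.05e-08). The other genes called were Sqstm1 (-1.21), Txnrd1 (-0.78), Nqo1 (-2.65) and, upward, Nfe2l2 (0.67). These differences rest on the libraries that went against their label. For PE against PBS, whose libraries did not, 4 of the 10 differed (1 upward, 3 downward), where 11.5% of all genes were called, 7.87% upward and 3.58% downward. They were Srxn1 (-0.77 ± 0.14, adjusted p = 0.00183), Gclm (-0.97 ± 0.23, adjusted p = 0.0126), Hmox1 (-0.79 ± 0.21, adjusted p = 0.0187) and Nfe2l2 (0.48 ± 0.11, adjusted p = 0.00863). The count ranged from 1 to 5 when single replicate numbers were left out, and of the 4 genes only Srxn1 kept its call in all 6 of those fits. Slc7a11 (-0.79 ± 0.26, adjusted p = 0.0555) and Sqstm1 (-0.16 ± 0.13, adjusted p = 0.468) did not differ past the threshold. The call of Slc7a11 hung on the settings. It passed with RLE factors (-0.81, adjusted p = 0.0495), the replicate block (-0.73, adjusted p = 0.0380) and without the 3 libraries labelled SE (-0.86, adjusted p = 0.0457), but not with DESeq2. For SE against PE, 6 of the 10 differed, all downward, where 28.8% of all genes were called and 16.4% downward, led by Hmox1 at -1.92 ± 0.21 (adjusted p = 8.32e-07) and followed by Gclm (-1.47), Slc7a11 (-1.23), Sqstm1 (-1.05), Srxn1 (-0.89) and Txnrd1 (-0.61). Levels in PBS also stood apart between the sets: Slc7a11 was at 40.9–52.9 CPM in replicates 1-3 and at 203–399 CPM in replicates 4-6, and Gclc was at 42.1–52.7 and at 98.9–118 CPM.

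With IL-4 the same genes gave few calls, and those were in the downward direction. In replicates 1-3, 1 of the 10 genes passed with SE and 1 with PE, where 6.44% and 3.95% of all genes were called and 3.37% and 1.64% were called as lower. It was Slc7a11 in both. Its libraries stood at 68.4, 58.4 and 66.5 CPM in PBS, at 45.5, 28.2 and 20.8 CPM in SE and at 33.9, 24.5 and 23.6 CPM in PE. All 6 peptide libraries lay below all 3 PBS libraries, with log2 fold changes of -0.98 ± 0.24 with SE (1.97-fold, adjusted p = 0.0194) and -1.18 ± 0.24 with PE (2.27-fold, adjusted p = 0.0148). Both calls were lost without replicate 2 (-0.97, adjusted p = 0.293, and -1.17, adjusted p = 0.179) or replicate 3 (-0.73, adjusted p = 0.214, and -1.07, adjusted p = 0.163). In those fits the calls over all genes also fell, from 795 to 27 and 35 with SE and from 488 to 51 and 44 with PE.

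**Figure D3:**
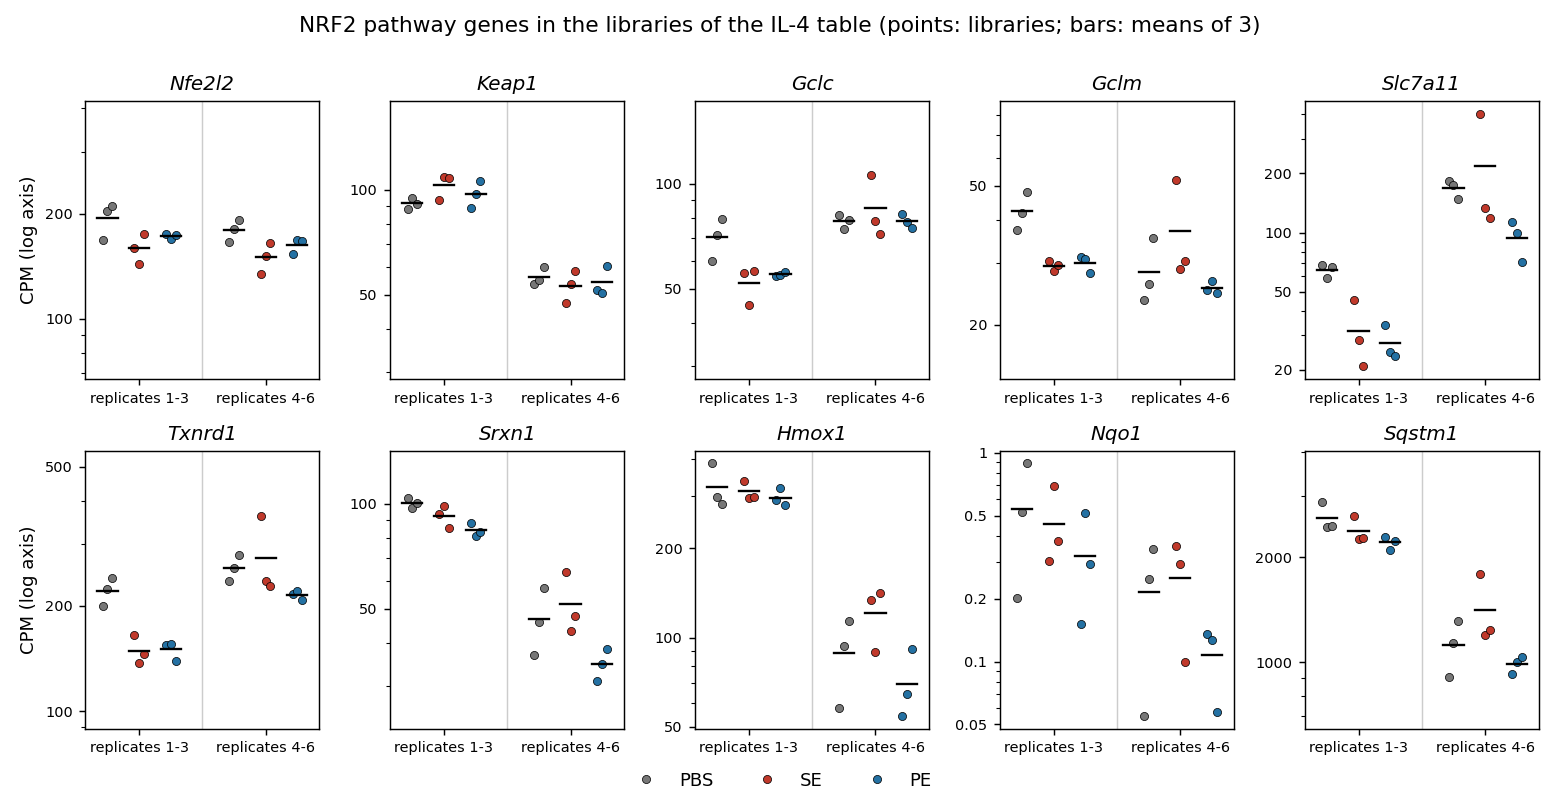
CPM of the 10 genes in the IL-4 table on log axes that differ in range between panels, with 1 point per library and a bar at the mean of 3 libraries. Slc7a11, Gclm and Txnrd1 lie lower with both peptides than with PBS in replicates 1-3, and SE replicate 4 lies above the other SE libraries for Slc7a11 at 403 CPM.

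Gclm and Txnrd1 passed the p threshold in the same direction but not the fold threshold. Gclm stood at 37.3, 41.9 and 47.9 CPM in PBS, at 30.5, 28.5 and 29.7 CPM in SE and at 31.2, 30.9 and 28.2 CPM in PE (-0.47 ± 0.10, adjusted p = 0.0141, and -0.44 ± 0.10, adjusted p = 0.0245). Txnrd1 stood at 199.8, 223 and 240.4 CPM in PBS, at 165, 137 and 146 CPM in SE and at 155, 156 and 139 CPM in PE (-0.51 ± 0.09, adjusted p = 0.00785, and -0.50 ± 0.09, adjusted p = 0.0119). In both genes the peptide libraries lay below PBS without overlap. Gclc passed the p threshold with SE alone (-0.38 ± 0.11, adjusted p = 0.0388, and -0.30 ± 0.11 with PE, adjusted p = 0.112). Its peptide libraries also lay below PBS, at no more than 56.1 CPM in SE and 56.0 CPM in PE against 60.1 CPM or more in PBS. Hmox1, the strongest responder of the IFNγ table, stood at 388, 299 and 282 CPM in PBS, at 339, 297 and 299 CPM in SE and at 291, 319.7 and 281 CPM in PE. Its groups overlapped, and its log2 fold change with PE was -0.07 ± 0.12 (adjusted p = 0.753). Nfe2l2, Keap1, Srxn1, Nqo1 and Sqstm1 did not pass the p threshold with either peptide.

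SE and PE did not separate under IL-4 in replicates 1-3. None of the 10 genes was called with edgeR or DESeq2, none reached a raw p of 0.05, and 0.00% of all genes were called, while 4.51% of them had such a p. The estimates with 2 standard errors either side ran from -0.17 to 0.31 for Hmox1, from -0.23 to 0.17 for Gclm, from -0.28 to 0.68 for Slc7a11, from -0.03 to 0.29 for Srxn1 and from -0.70 to 1.74 for Nqo1. For Hmox1 and Gclm these intervals lay below the differences of 1.13 and 0.82 found under IFNγ.

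In replicates 4-6 with IL-4, 9 of the genes could be tested, since Nqo1 had at most 8 counts in a library. None was called with SE, with PE or between the peptides, with edgeR or with DESeq2, where 1.05%, 2.24% and 0.00% of all genes were called. The counts at an unadjusted p under 0.05 were 1, 1 and 5 of the genes, against 18.5%, 19.0% and 7.83% of all genes. The SE group was wide through replicate 4, which stood at 403 CPM for Slc7a11 against 133 and 118 CPM in replicates 5 and 6, at 52.1 CPM for Gclm against 29.0 and 30.5 CPM, and at 362 CPM for Txnrd1 against 236 and 228 CPM. Slc7a11 in PE, at 113, 99.0 and 71.1 CPM, lay below PBS at 183, 175 and 149 CPM, with a log2 fold change of -0.84 ± 0.40 (adjusted p = 0.292). With SE replicate 4 left out, so that it no longer entered the shared spread, this was -0.83 (adjusted p = 0.0168), and the count of genes with PE rose from 0 to 1. For SE against PE the 5 estimates with a raw p under 0.05 were 1.21 ± 0.40 for Slc7a11, 0.80 ± 0.27 for Hmox1, 0.57 ± 0.19 for Srxn1, 0.54 ± 0.23 for Gclm and 0.51 ± 0.18 for Sqstm1, and none passed, with adjusted p from 0.593 to 0.615.

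The label sets of the IL-4 table were compared in the same way as those of the IFNγ table. None of the 10 genes differed for SE against PBS, PE against PBS or SE against PE, where 4.39%, 0.00705% and 0.00% of all genes were called. At an unadjusted p under 0.05 there were 4, 0 and 2 of them, against 24.1%, 10.5% and 3.13% of all genes. With DESeq2 the counts were 3, 0 and 0, and with the replicate number as a block 4 of the 10 differed for SE against PBS. Those were Gclm (0.88, adjusted p = 0.0375), Txnrd1 (0.64, adjusted p = 0.0419), Gclc (0.54, adjusted p = 0.0302) and Slc7a11 (1.27, adjusted p = 0.0276), each higher with SE in replicates 4-6 than in 1-3. SE replicate 4 stood high for all 4 of these genes.

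Whether the response differed between the IFNγ and IL-4 tables was tested on the replicates 1-3 of both in 1 model, each contrast taken within its own table. Each cytokine was in its own table, so cytokine and table cannot be told apart here. Against PBS the cytokine and the peptide cannot be told apart either. For SE against PBS, 7 of the 10 genes differed, where 33.6% of all genes were called, 14.8% upward and 18.8% downward. For PE against PBS 7 differed, where 24.4% were called, 11.3% upward and 13.1% downward. In both, Gclm, Slc7a11, Txnrd1, Srxn1, Hmox1 and Sqstm1 had the higher response in the IFNγ table and Nfe2l2 the lower one. These contrasts share their PBS libraries. The IFNγ response minus the IL-4 response was 2.50 ± 0.14 on the log2 scale for Gclm with SE (adjusted p = 4.16e-10), 2.50 ± 0.28 for Slc7a11 (adjusted p = 1.49e-06) and 2.31 ± 0.15 for Hmox1 (adjusted p = 3.27e-09). With PE it was 1.67 ± 0.14 for Gclm (adjusted p = 9.70e-08), 1.87 ± 0.28 for Slc7a11 (adjusted p = 5.99e-05) and 1.27 ± 0.15 for Hmox1 (adjusted p = 6.13e-06). Slc7a11 was the one gene called in opposite directions in the tables, up with IFNγ and down with IL-4. Txnrd1 differed too, by 1.02 ± 0.13 with SE (adjusted p = 9.55e-06), with estimates on opposite sides of 0 that were each under the fold threshold. The call of Nfe2l2 with SE (-0.37 ± 0.11, adjusted p = 0.0166) was lost without replicate 1, 2 or 3 (adjusted p = 0.0564, 0.0625 and 0.0931).

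**Figure D4:**
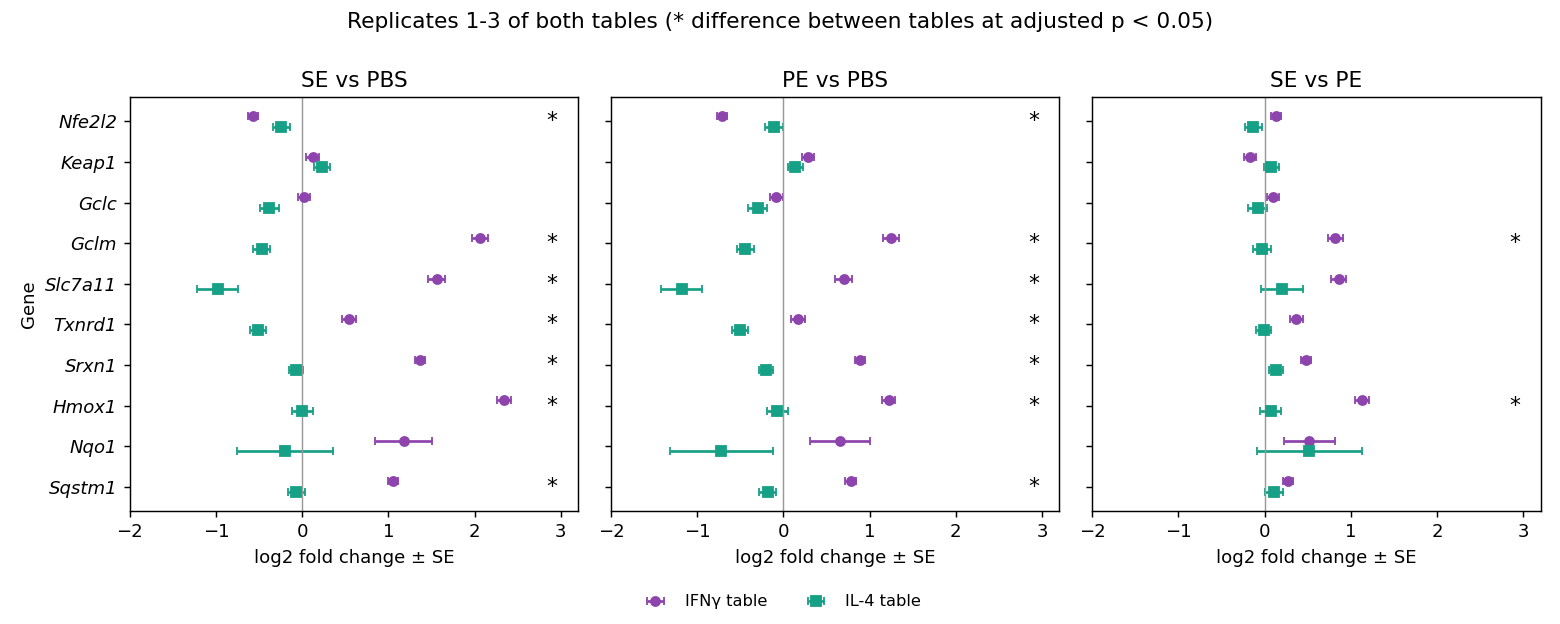
Log2 fold change with its standard error for the 10 genes in replicates 1-3 of the IFNγ table (circles) and the IL-4 table (squares), in 3 panels by contrast, with an asterisk where the tables differed at an adjusted p under 0.05. With SE against PBS the IFNγ circles of Gclm, Slc7a11, Srxn1, Hmox1 and Sqstm1 lie to the right of 1 and the IL-4 squares at or to the left of 0.

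For SE against PE, the contrast in which both groups had the cytokine, 2 of the 10 genes differed between the tables, where 6.83% of all genes were called and 3.11% upward. Hmox1 differed by 1.04 ± 0.15 (adjusted p = 0.000671) and Gclm by 0.82 ± 0.14 (adjusted p = 0.00204). The Hmox1 call was lost without replicate 2 (0.97, adjusted p = 0.0771) or replicate 3 (1.04, adjusted p = 0.0693) and the Gclm call without replicate 2 (0.77, adjusted p = 0.141), while the estimates moved little. Slc7a11 (0.63 ± 0.27, adjusted p = 0.175) and Srxn1 (0.32 ± 0.10, adjusted p = 0.0591) did not pass. With the replicate number as a block within each table, both did (0.66, adjusted p = 0.0420, and 0.32, adjusted p = 0.0412), so that 4 genes differed. Srxn1 also passed with DESeq2 (adjusted p = 0.0185). The check of same-numbered libraries given below met its mark for every pair of groups in the IL-4 set and for none in the IFNγ set.

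The wider pathway was described with 66 further genes in 6 lists, of which 56 were tested in replicates 1-3 of the IFNγ table. With SE 20 rose and 6 fell, with PE 15 rose and 5 fell, and between the peptides 5 were higher with SE and none was lower. Over all genes, 22.8% were called with SE (12.6% higher), 19.8% with PE (10.3% higher) and 6.08% between the peptides (4.48% higher). The last count is of few genes, and these counts are descriptions without a set test. Their median log2 fold change was 0.25 with SE and 0.27 with PE, far below that of the 10 genes. Of the haem and iron list (8 of 8 tested), 5 rose and 1 fell with SE, among them the iron exporter Slc40a1 (2.69 ± 0.16, adjusted p = 8.27e-09) and biliverdin reductase Blvrb (2.55 ± 0.08, adjusted p = 9.46e-12). Blvrb stood at 52.1, 60.1 and 49.2 CPM in PBS, at 299, 324 and 307 CPM in SE and at 268, 274 and 288 CPM in PE, so that both peptide groups lay far above PBS and near each other (SE against PE 0.15 ± 0.07, adjusted p = 0.155). Ggt1, which cleaves extracellular glutathione, rose with SE (2.41 ± 0.31, adjusted p = 2.25e-05) from 8, 9 and 10 counts to 55, 40 and 59.

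Of the thioredoxin and peroxiredoxin list (8 tested), 2 rose and 1 fell with each peptide. The risers were the peroxiredoxins Prdx5 (2.01 ± 0.07 with SE and 1.49 ± 0.07 with PE) and Prdx1 (1.82 ± 0.08 and 1.22 ± 0.08), and the thioredoxin inhibitor Txnip fell (-1.17 ± 0.09 and -0.80 ± 0.09). Of the glutathione list (7 tested), 4 rose with SE and 3 with PE, where 12.6% and 10.3% of all genes were called as higher. Of the NRF2 partners and regulators (9 tested), 2 rose with SE, namely the small MAF genes Maff (1.99 ± 0.15) and Mafg (0.59 ± 0.06), and none passed with PE. That count with SE is at the share of all genes called, 22.8%, and lists this short are given as descriptions. Maff was also higher with SE than with PE (1.59 ± 0.14, adjusted p = 6.22e-06), at 15.6, 13.5 and 13.8 CPM against 5.13, 4.89 and 4.08 CPM. Of the conjugation, reduction and export list (18 tested), 6 rose and 3 fell with SE and 5 rose and 3 fell with PE, led by the glutathione transferase Gstp1 (2.13 ± 0.11 and 2.39 ± 0.11) and, downward, the epoxide hydrolase Ephx1 (-1.81 ± 0.11 and -1.43 ± 0.10). Of the NADPH list (6 tested), malic enzyme Me1 rose with SE (0.92 ± 0.08) while isocitrate dehydrogenase Idh1 fell with both (-1.87 ± 0.07 and -1.51 ± 0.07). ATF4 drives Slc7a11 and Sqstm1 as well. Of a list of 8 genes, Atf4 itself and targets of ATF4, 5 rose with SE and 4 with PE, against the same 12.6% and 10.3% of all genes. Ddit3 stood at 1.44 ± 0.18 and 1.79 ± 0.18 and Atf3 at 1.88 ± 0.14 and 1.16 ± 0.14. The part of ATF4 and its targets in the values of the 10 genes was not tested.

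**Figure D5:**
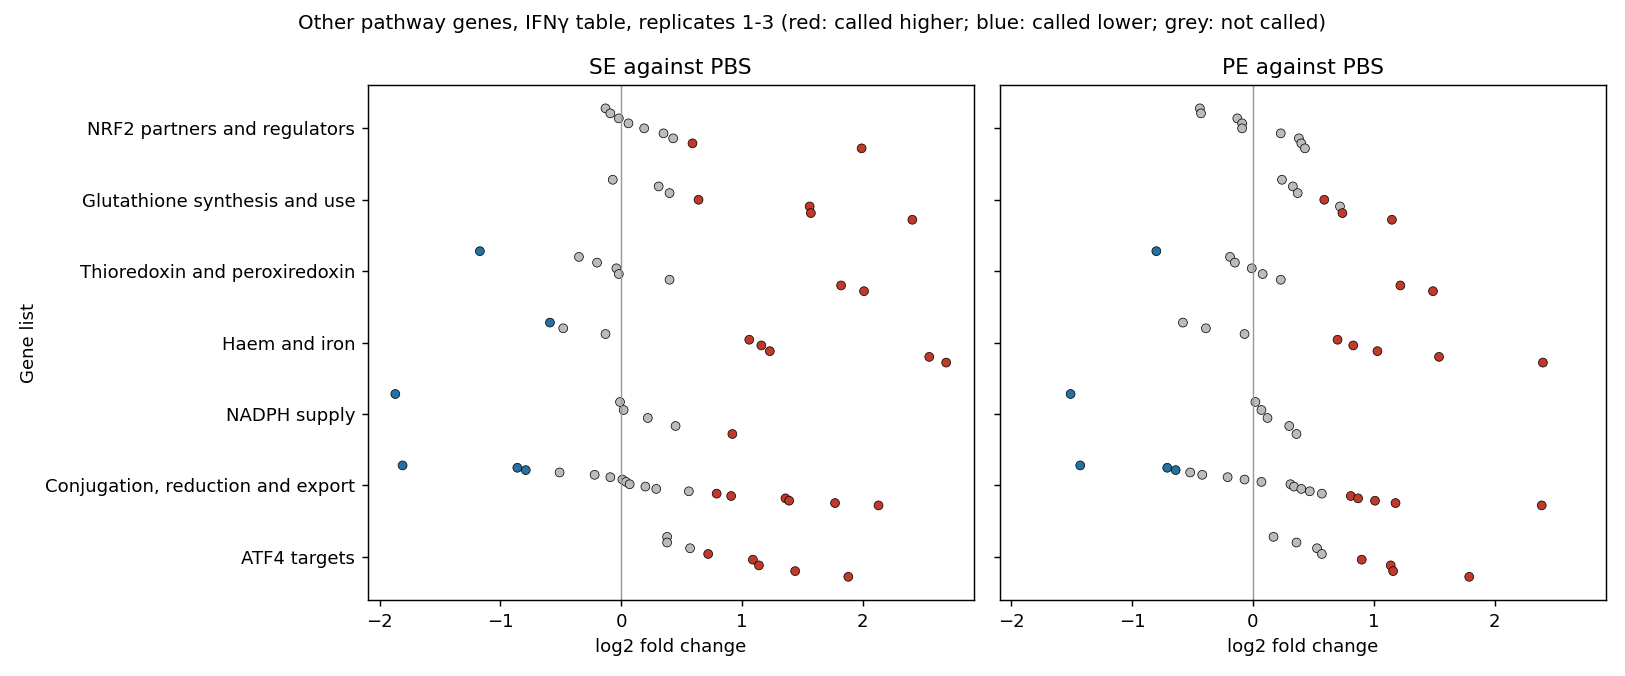
Log2 fold changes (horizontal axis) of the tested genes of 7 lists (vertical axis) in replicates 1-3 of the IFNγ table, with 1 point per gene, red where called higher, blue where called lower and grey where not called. The haem and iron list has 5 red points with SE and 5 with PE, and the list of conjugation, reduction and export genes has points on both sides of 0.

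In replicates 4-6 with IFNγ, 55 of the 66 genes were tested, and with PE 9 rose and 3 fell, among them Blvrb (1.73 ± 0.14), Slc40a1 (1.30 ± 0.19) and Gsta3 (1.18 ± 0.25) upward and Mgst2 (-1.08 ± 0.29) downward, where 10.8% of all genes were called and 6.16% as higher. Blvrb stood at 71.7, 84.3 and 118 CPM in PBS and at 289, 317 and 302 CPM in PE, a clear separation in the set where Hmox1 did not pass. In the libraries labelled SE the median log2 fold change of the 55 against PBS was -0.04, where 0.720% of all genes were called. With IL-4 in replicates 1-3, of 55 tested 5 rose and 1 fell with SE and 4 rose and 3 fell with PE, where 6.44% and 3.95% of all genes were called. Gsta2, a glutathione transferase, rose from 1, 0 and 1 counts in PBS to 47, 130 and 77 in SE and 68, 36 and 46 in PE, and Slc40a1, which rose with IFNγ, fell with PE (-1.66 ± 0.34, adjusted p = 0.0148). Glutaredoxin Glrx rose in both tables, by 1.57 ± 0.06 with SE and 0.74 ± 0.06 with PE under IFNγ and by 0.63 ± 0.10 and 0.94 ± 0.10 under IL-4. In IL-4 replicates 4-6 with PE, 2 rose and 2 fell, where 2.24% of all genes were called, among them Glrx (0.70 ± 0.11) and the Slc7a11 partner subunit Slc3a2 (-0.69 ± 0.14).

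Genes with the pattern most like that of a member were looked up over the 36 libraries, among 8081 genes with a mean of at least 10 CPM in both tables, after each gene was centred within its table and label set. The correlations are descriptions, since the points share libraries and treatments. Hmox1 was closest to Srxn1 (Pearson r = 0.94), Gab2 (0.93) and Zfand3 (0.93). Gclm was closest to catalase, Cat (0.96), and to Srxn1 (0.94) and Ubap1 (0.93), and Srxn1 to Gclm, Zfand3 and Cat (0.94 each). Slc7a11 was closest to Txnrd1 (0.91), Prdm4 (0.89) and the chemokine gene Cxcl2 (0.89). These 4 members had the widest range of centred values among the members at that level. For each only the 3 closest genes were taken, so no grouping of the members follows.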

How the data were processed

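Both deposited tables held raw read counts by gene name, as whole numbers. Per the labels and the study's methods the authors isolated total RNA with Trizol, made TruSeq libraries, counted uniquely aligned reads with featureCounts on GRCm38 (p5) with GENCODE annotation and ran DESeq2 1.16.1 in R 3.4.1. The aligner and the strand setting are not given in the sources used here. The tables carried no comparisons. The members and lists were chosen with earlier results of these data known. The rule for named genes took the 10 genes, those not called being given in part as counts or ranges, and of the wider lists the called genes with the largest rise or fall, plus others named as examples after their values were seen.

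Groups came from the sample labels. Counts were analysed with edgeR 4.0.16 in R 4.3.3 (TMM, filterByExpr, quasi-likelihood test, Benjamini-Hochberg over all genes tested), with the 9 libraries of a label set per fit, or 18 for differences between sets or tables. Differences between label sets or tables were called at an adjusted p under 0.05 alone. Standard errors are the estimate over the root of F. Levels are CPM with TMM factors over the 18 libraries of a table. The CPM range for a count of 0 and the histone sums used library totals alone. Similarity used log2 CPM with a prior count of 2. Coordinates and exon lengths are from GENCODE release M21 on GRCm38, while the authors counted on release M12. Alternatives were RLE factors, DESeq2 1.42.0, other count filters, a replicate block, joint and pooled fits and left-out libraries. The code was tested on simulated data.

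Same-numbered libraries deviated together (correlation over 0.1 in all 3 pairs) in replicates 1-3 of the IL-4 table for every pair of groups, in its replicates 4-6 for PE with PBS, and in replicates 4-6 of the IFNγ table for SE with PE. In replicates 1-3 of the IL-4 table, 1 library numbered otherwise still correlated more in some cases. PE replicate 3 reached 0.20 with such a PBS library against 0.13 with its own number. SE replicate 2 reached 0.23 with such a PE library against 0.19. The pairing comes from the data, not from a label.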

Additional observations from a re-analysis of the deposited data

Results flagged for a closer look

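A single library stood far from the other 5 of its group in 2 of 60 groups of 6 libraries checked, and chance gives about 1 in 20 for 6 alike libraries. These groups pool the label sets, whose levels stood apart, so that rate does not hold as such here. Both were SE replicate 4 of the IL-4 table. For Gclm, at 52.1 CPM, its gap to the next library was 0.917 of the group's range, and for Slc7a11, at 403 CPM, it was 0.706.

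Between the tables, in replicates 1-3, the log2 response with IFNγ minus that with IL-4 passed an adjusted p of 0.05 in 16 tests of the 10 genes. For SE against PBS the differences were 2.50 for Gclm, 2.50 for Slc7a11, 2.31 for Hmox1, 1.40 for Srxn1, 1.09 for Sqstm1, 1.02 for Txnrd1 and -0.37 for Nfe2l2. For PE against PBS they were 1.87 for Slc7a11, 1.67 for Gclm, 1.27 for Hmox1, 1.08 for Srxn1, 0.95 for Sqstm1, 0.65 for Txnrd1 and -0.61 for Nfe2l2. For SE against PE they were 1.04 for Hmox1 and 0.82 for Gclm.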

How the results depend on the processing

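Of the 10 genes' calls, those with IFNγ in replicates 1-3 kept their counts under RLE factors, DESeq2, other count filters and the joint fit within 1.5 times, and pooling the label sets ended most of them. Pooled with a term for the set and without one, SE against PBS went from 6 to 0 and 0, PE against PBS from 6 to 1 and 0, and SE against PE from 3 to 0 and 0 (replicates 4-6, 3 to 0 and 0). PE against PBS in replicates 4-6 went from 1 to 0 pooled without a term and without the 3 libraries labelled SE, and to 2 without PBS replicate 6. With IL-4, SE against PBS in replicates 1-3 went from 1 to 0 in the joint fit and in both pooled fits, and PE against PBS to 0 pooled without a term. In replicates 4-6, PE against PBS went from 0 to 1 with no filter, pooled with a term and without SE replicate 4, and SE against PE to 2 with no filter. The IL-4 difference between label sets for SE against PBS went from 0 to 3 with DESeq2, 3 with no filter and 1 with at least 10 counts in every library, and that for SE against PE to 2 with no filter. Signs reversed in the pooled fits for Gclm (0.24 and 0.22) and Hmox1 (0.37 and 0.66) in IFNγ SE against PE, replicates 4-6, and for Slc7a11 in IL-4 SE against PBS, replicates 1-3 (0.10). The pooled fits mix in the other set's libraries by construction, and otherwise the cause was not tested. They hold the same set of replicates that the study reports together.

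With the replicate number as a block, the IL-4 difference between label sets for SE against PBS went from 0 to 4 and the difference between tables for SE against PE from 2 to 4, adding Slc7a11 and Srxn1. The block took away no call on the 10 genes and added none within a label set.

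With single replicate numbers left out, IFNγ counts ranged from 5 to 6 (SE against PBS, replicates 1-3), 5 to 6 (PE), 0 to 2 (PE, replicates 4-6), 2 to 3 (SE against PE, replicates 4-6) and 1 to 5 (difference between label sets, PE). IL-4 counts ranged from 0 to 2 (SE, replicates 1-3), 0 to 1 (PE, replicates 1-3), 0 to 1 (PE, replicates 4-6) and 0 to 3 (difference between label sets, SE). Differences between tables ranged from 6 to 7 (SE against PBS) and 0 to 4 (SE against PE). The fits without SE replicate 4 and without PBS replicate 6 were chosen after seeing the data. With 3 libraries a group, Nqo1 and Ggt1, at few counts, are limited by depth.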
